A study of Mus musculus with 2 samples.

Results

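The p38 MAP kinase pathway was described at 10 genes in lung group 2 innate lymphoid cells (ILC2s), out of 21938 protein-coding genes in the GENCODE vM21 annotation of GRCm38. They were taken by symbol, whatever their peaks, and comprised the upstream kinase gene Map3k5, the MAP2K genes Map2k3 and Map2k6, the p38 genes Mapk14, Mapk11, Mapk12 and Mapk13, and the downstream kinase genes Mapkapk2, Mapkapk3 and Mapkapk5. Map2k3 and Mapkapk3 were set beside the other 8. The mark profiled was trimethylation of lysine 4 of histone H3 (H3K4me3), by CATCH-seq, which is carrier-assisted native ChIP-seq of chromatin cut with micrococcal nuclease. Each of the 2 libraries came from about 3000 ILC2s sorted from the lungs of 8-week-old offspring, by ST2 and CD45 without lineage markers. For sorts from adult lungs the reporting summary also lists Thy1. The study's wild-type mice were C57BL/6J. Control mothers received alum in PBS by intraperitoneal injection before mating and intranasal PBS in pregnancy. Asthmatic mothers received ovalbumin (OVA) with the alum and intranasal OVA in pregnancy. The labels give no treatment of the offspring themselves. The libraries, 1 per group, are called the PBS library and the OVA library after the mothers' treatment. With 1 pregnant dam per group in the study, maternal treatment, litter and library cannot be told apart, and no test between the groups was possible.

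In the p38 pathway, MAP3Ks such as MAP3K5 (ASK1), which responds to oxidative stress and cytokines, phosphorylate the MAP2Ks MKK3 and MKK6, the products of Map2k3 and Map2k6. These activate the p38 kinases, which in turn activate the MAPKAP kinases MK2, MK3 and MK5, of which MK2 is known to stabilise cytokine mRNAs. In ILC2s, which respond to the alarmin IL-33 through its receptor ST2, p38 activity is known to lie downstream of that receptor. H3K4me3 marks the starts of genes, mostly at promoters rich in CpG dinucleotides.

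A peak within 1000 bp of any annotated transcript start of a gene was counted as its start peak. In the PBS library 9 of the 10 genes had a start peak, against 51.0% of all protein-coding genes. In the OVA library 7 of the 10 had one, against 42.0%. The same 7 genes, Map3k5, Map2k3, Mapk14, Mapk11, Mapkapk2, Mapkapk3 and Mapkapk5, had a start peak in both lists, as had 41.3% of all genes. Map2k6 and Mapk12 had a start peak only in the PBS list, a pattern held by 9.72% of all genes. No p38 pathway gene had one only in the OVA list, where 0.711% of all genes did. Mapk13 had none in either list, as was the case for 48.2% of all genes. Peaks inside the gene but away from starts were listed at 1 of the 10 genes, Map2k6, in the PBS library (15.3% of all genes) and at 2, Map3k5 and Map2k6, in the OVA library (17.9%). In all, 14 peaks lay at these genes in the PBS library and 13 in the OVA library. Of the 12 PBS start peaks at these genes, 7 overlapped an OVA peak by at least 1 bp (58.3%, exact Clopper-Pearson 95% interval 27.7 to 84.8%), against 70.0% of 12762 PBS start peaks of all genes. All 9 OVA start peaks overlapped a PBS peak, against 95.6% of 10062.

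Promoter sequences of 5 of the genes are shown because they span the range from a strong start peak to none, each running from 250 bases before to 50 bases after the RefSeq start, 5′ to 3′ in the direction of transcription, with CpG dinucleotides in capitals. RefSeq gave 14 such sequences for the 10 genes on GRCm38.p6, and all 14 were identical to the genome sequence.
Mapk14, chr17:28691092-28691391, plus strand, start peak in both lists, strong in the PBS list: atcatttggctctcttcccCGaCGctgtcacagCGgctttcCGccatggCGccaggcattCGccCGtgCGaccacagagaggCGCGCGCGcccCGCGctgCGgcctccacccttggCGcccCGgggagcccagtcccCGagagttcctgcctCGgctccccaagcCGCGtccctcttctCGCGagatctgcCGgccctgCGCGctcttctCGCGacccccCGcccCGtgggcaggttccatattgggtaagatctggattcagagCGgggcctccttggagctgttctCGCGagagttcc
Map2k3, chr11:60931804-60932103, plus strand, start peak in both lists: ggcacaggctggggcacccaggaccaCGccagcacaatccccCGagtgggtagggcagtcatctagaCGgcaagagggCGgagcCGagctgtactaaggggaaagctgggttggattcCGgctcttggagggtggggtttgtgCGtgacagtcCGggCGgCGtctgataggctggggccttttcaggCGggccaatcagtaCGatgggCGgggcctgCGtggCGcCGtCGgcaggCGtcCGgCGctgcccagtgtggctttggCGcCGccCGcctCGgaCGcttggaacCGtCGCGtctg
Mapkapk3, chr9:107289828-107290127, minus strand, weak start peak in both lists: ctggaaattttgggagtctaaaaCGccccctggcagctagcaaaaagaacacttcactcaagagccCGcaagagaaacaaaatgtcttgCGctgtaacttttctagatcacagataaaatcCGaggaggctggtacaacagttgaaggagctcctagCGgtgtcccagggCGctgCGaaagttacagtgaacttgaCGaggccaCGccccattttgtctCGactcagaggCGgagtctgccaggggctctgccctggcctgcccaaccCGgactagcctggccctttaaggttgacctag
Map2k6, chr11:110398852-110399151, plus strand, start peak in the PBS library only: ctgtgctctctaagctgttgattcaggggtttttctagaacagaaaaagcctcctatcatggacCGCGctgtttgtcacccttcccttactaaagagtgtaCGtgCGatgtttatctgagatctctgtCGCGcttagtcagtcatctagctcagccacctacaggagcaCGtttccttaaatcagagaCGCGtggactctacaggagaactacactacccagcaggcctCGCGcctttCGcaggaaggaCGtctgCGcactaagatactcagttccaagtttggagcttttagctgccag
Mapk13, chr17:28769067-28769366, plus strand, no start peak: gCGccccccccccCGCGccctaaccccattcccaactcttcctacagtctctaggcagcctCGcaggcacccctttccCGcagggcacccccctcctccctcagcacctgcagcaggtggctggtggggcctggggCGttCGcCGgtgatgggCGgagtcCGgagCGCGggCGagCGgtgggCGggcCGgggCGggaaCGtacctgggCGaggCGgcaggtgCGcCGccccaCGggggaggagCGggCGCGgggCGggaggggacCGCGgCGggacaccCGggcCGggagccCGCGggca

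The Mapk13 promoter held 34 CpG, more than 89.8% of the 21262 promoters of protein-coding genes, and the Mapk14 promoter held 33 (above 88.7%). Both genes encode p38 kinases and lie near each other on chromosome 17, and only Mapk14 had a start peak. Map2k3 had 28 CpG, Map2k6 had 14 and Mapkapk3 had 12. Of the promoters not shown, Map3k5 held 47 CpG, Mapkapk5 29, Mapk11 24 and Mapkapk2 18. Of promoters with 20 or more CpG, 83.5% had a peak within 1000 bp of the start in the PBS library and 71.8% in the OVA library. Of those with 10 to 19, 64.3% and 48.7% did, and of those with 0 to 4, 5.12% and 3.73%. The CpG content of Mapk13 was therefore that of promoters that mostly had a peak, and its nearest peaks lay 31474 bp from any of its 9 starts in the PBS library and 31279 bp in the OVA library. Peaks kept between the lists also followed CpG content, since 85.4% of promoters with 20 or more CpG and a peak in the PBS library also had one in the OVA library, against 74.8% of those with 10 to 19. The promoters of Map2k6 and Mapk12, the genes with a start peak in 1 list, both held 14 CpG. That of Mapkapk3, with a start peak in both lists, held fewer, 12.

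Short motifs were looked for in the same windows on both strands, as letters only. The GC box GGGCGG, the motif of SP1, occurred in 46.2% of all promoters, with 5 matches at Mapk13, 4 each at Map2k3 and Mapk11, and none at the Map2k6 or Mapkapk3 windows shown above. CCAAT (38.2% of all promoters) was found at Map2k3 and Mapk14. AGATAA, the motif of GATA factors (9.65%), was found at position -139 from the start of both Map2k6 and Mapkapk3, as well as at a second Mapk14 start. TGANTCA, the AP-1 motif (6.99%), was found at Map2k6, and ACANNNTGT, a core of the glucocorticoid receptor motif (5.97%), at position -174 of Mapkapk3. The Map2k6 and Mapkapk3 windows with these matches are those shown above, and no peak of either list overlaps them. The second Mapkapk3 window, chr9:107289347-107289646, lies within a PBS peak and held 11 CpG and none of the motifs. CRE, TGACGTCA (2.23%), and ETS, CCGGAAG (11.6%), were found at none of the 14 windows. These matches are a description of the windows, not sites.

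The peak lists give for each peak a fold and a −log10 q against the caller's background, which are not scaled between libraries. Genes were therefore ranked within each list by the highest −log10 q among their start peaks, as a percentile among genes with a start peak in that list, 11197 for PBS and 9220 for OVA. Mostly weak genes are missing from the OVA ranking, so the same percentile in both lists does not stand for the same genes below. The OVA list was shorter only in genes with a start peak. It held 51610 peaks in all, of median width 249 bp, against 42126 of 315 bp in the PBS list. In addition, the number of fragments at each summit was solved from the deposited fold and −log10 p. This number carries an exact Poisson 95% interval for counting error only and assumes that peaks were called without a control library. Across the 9064 protein-coding genes with a start peak in both lists, the median ratio of summit fragments, OVA over PBS, was 0.613 (quartiles 0.529 and 0.714), and 1.86% of genes had a ratio above 1. The bp covered by peaks at starts had a median ratio of 0.629 (0.462 and 0.789). Lower summits and fewer covered bp at starts in the OVA library were thus general, and the p38 pathway genes were read against these medians.

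**Figure D1:**
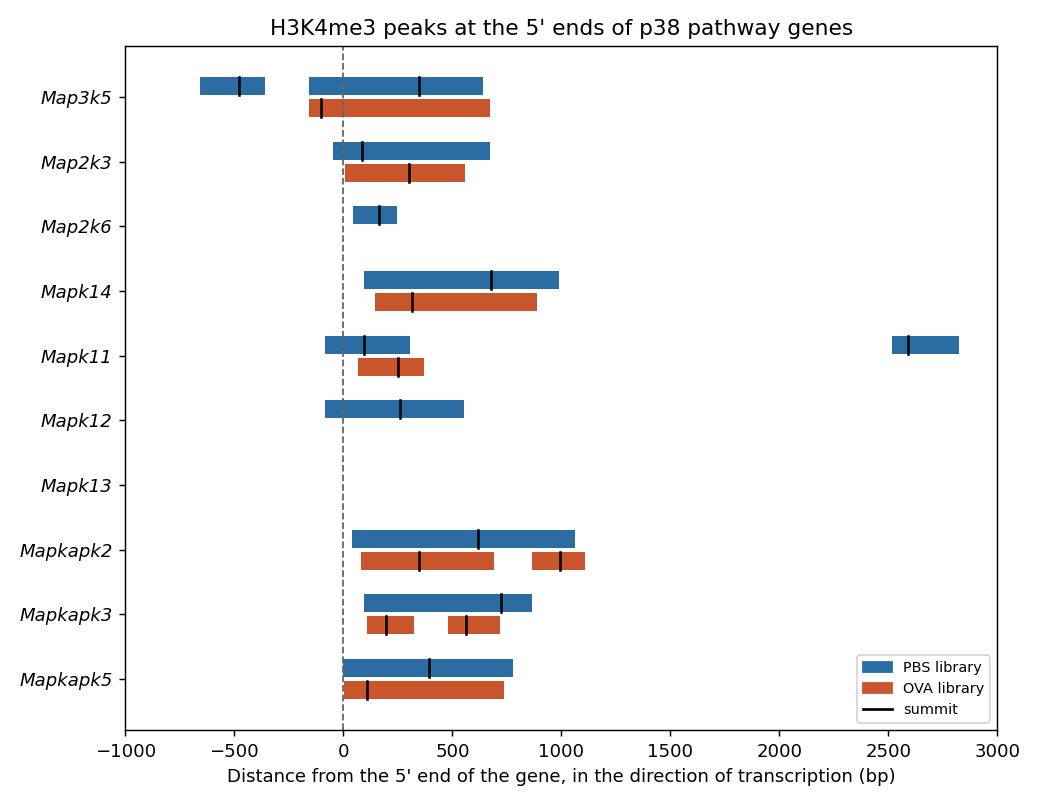
Peaks at the 5′ ends of the 10 genes, with the distance from the 5′ end of the gene in bp on the x axis, positive in the direction of transcription. Bars are peaks of the PBS library (blue) and the OVA library (orange) and black lines are summits. Most start peaks lie downstream of the 5′ end, Mapk13 has none, and Map2k6 and Mapk12 have 1 in the PBS list alone (peaks beyond 3000 bp are not drawn).

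At the top of the pathway, Map3k5 (ENSMUSG00000071369.11, chr10:19934472-20142753, plus strand) had 2 start peaks in the PBS library. The main peak, of 799 bp, covered the 5′ end and overlapped the first exon, with 30 fragments at its summit (20.2 to 42.8), and a 300 bp peak lay upstream with its summit at -479 bp from the 5′ end. A single OVA peak of 829 bp covered the same 5′ end, with 15 fragments (8.40 to 24.7), and the upstream peak was not listed. Map3k5 ranked at the 53.2nd percentile in the PBS list and at the 19.4th in the OVA list, and its summit ratio was 0.50 (0.250 to 0.959). The summits compared lay at different places, 348 bp from the 5′ end in the PBS library and -100 bp in the OVA library. The covered bp were 1099 and 829. Among PBS start peaks of all genes that lay within 0.5 of the upstream peak in −log10 q, 36.9% of 781 had no overlapping peak in the other list. The 198 bp peak listed in the OVA library in the Map3k5 body, 45092 bp downstream of the 5′ end, was 100% repeat-masked, and the 75 bases around its summit had 6595 exact copies in the genome.

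Map2k3 and Map2k6 encode the kinases that activate p38. Map2k3 (ENSMUSG00000018932.9, chr11:60932033-60952811, plus strand) had 1 start peak in each list. In the PBS library the peak (chr11:60931986-60932705) spanned 720 bp over the first exon, from -47 to 672 bp relative to the 5′ end, with 19 fragments at its summit (11.4 to 29.7) over a background of 2.94. In the OVA library it (chr11:60932042-60932590) spanned 549 bp, wholly within the PBS peak, with 17 fragments (9.90 to 27.2) over a background of 1.95. The −log10 q was 7.37 and 8.24, respectively, and the rank among genes with a start peak was at the 11.8th percentile in the PBS list and at the 51.8th in the OVA list. Among the 9064 genes with a start peak in both lists, these ranks were at the 4.85th and the 51.1st percentile. The summit ratio of 0.895 lay at the 94.5th percentile of the 9064 genes, the highest among the p38 pathway genes. Its interval, 0.437 to 1.82, held both 1 and the median of all genes, so at this number of fragments the difference from other genes was not detectable. The covered bp had a ratio of 0.762, at the 71.4th percentile. Of PBS start peaks at a like −log10 q, 58.8% of 767 had no overlapping peak in the other list, and Map2k3 was among those that had one. Map2k3os, an annotated antisense gene, also starts within 1000 bp of both peaks, and H3K4me3 at this place cannot be assigned to a strand.

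Map2k6 (ENSMUSG00000020623.11, chr11:110399122-110525522, plus strand) had the weakest start among these genes in the PBS library. Its start peak was 201 bp wide, with its summit 166 bp after the 5′ end, 12 fragments (6.2 to 21.0) and a −log10 q of 4.60, at the 2.02nd percentile. No start peak was listed in the OVA library. At a like −log10 q, 78.5% of 530 start peaks of all protein-coding genes had no overlapping peak in that list, and the smallest summit listed there held 8 fragments.

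Both lists held other peaks at Map2k6, in an intron, with the strongest summit 68667 bp from the 5′ end in the PBS library. The strongest had 27 fragments at its summit (17.8 to 39.3) in the PBS library and 19 (11.4 to 29.7) in the OVA library, against 12 at the PBS start peak. Its sequence is shown because it differed in kind from the promoters, with the first repeat unit in capitals. These 201 bases around the PBS summit, from the GRCm38 genome, plus strand, are at chr11:110467689-110467889.
Map2k6 intron: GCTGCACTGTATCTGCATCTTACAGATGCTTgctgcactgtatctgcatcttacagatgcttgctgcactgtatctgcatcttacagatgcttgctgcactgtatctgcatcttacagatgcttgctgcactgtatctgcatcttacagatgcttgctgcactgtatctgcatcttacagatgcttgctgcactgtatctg
The stretch was a tandem repeat of a 31 base unit, with 99.4% of the bases of the PBS peak matching the base 31 positions on, no CpG and 0% repeat-masked bases. The 75 bases around the summit occurred 17 times for the PBS peak and 19 times for the OVA one, and all of these copies lay within 2000 bp of it. The other body peaks of Map2k6, 1 in the PBS and 2 in the OVA library, lay in the same array, with 93.2 to 100.0% of bases matching at a lag of 31 or 62 bases. The PBS summit was at -9593 bp from the nearest RefSeq start of Map2k6. Start peaks of the 10 genes all had summits with 1 copy in the genome, and so had the weaker PBS body peak of Map2k6. Whether reads in repeated sequence were placed uniquely is not given in the sources used here.

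**Figure D2:**
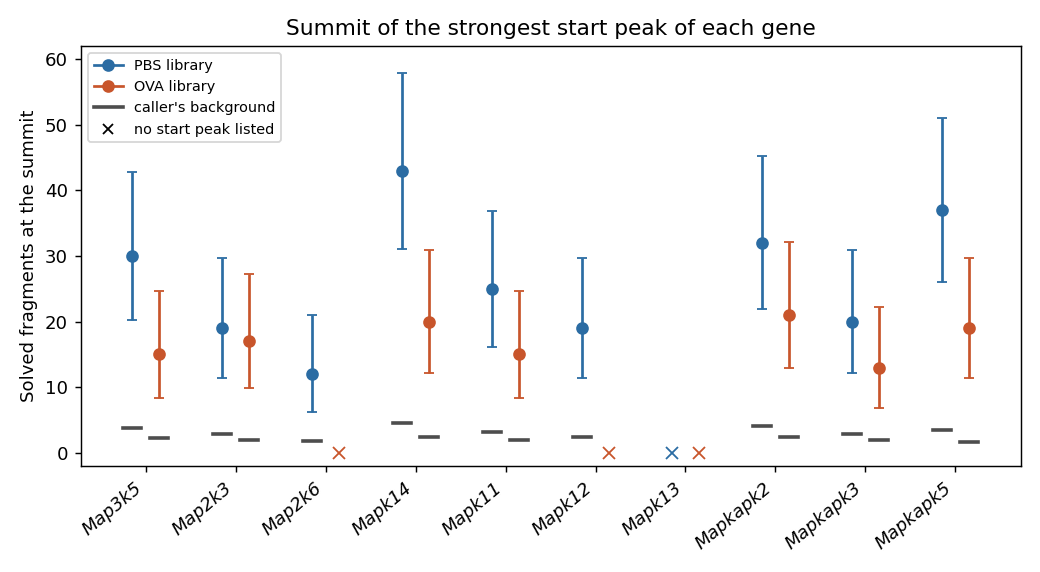
Solved fragments at the summit of the strongest start peak of each gene (y axis), for the PBS library (blue) and the OVA library (orange). Bars are exact Poisson 95% intervals for counting error only, grey lines the caller's background, and crosses genes with no start peak listed. The 7 genes with both values have a lower value in the OVA library, and the intervals are closest to each other at Map2k3, with 19 and 17 fragments.

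Among the p38 genes, Mapk14 (ENSMUSG00000053436.15, chr17:28691329-28748406, plus strand), which encodes the widely expressed p38α, had the strongest start. In the PBS library its peak spanned 895 bp with 43 fragments at the summit (31.1 to 57.9), at the 93.9th percentile. The OVA peak spanned 744 bp with 20 fragments (12.2 to 30.9), at the 63.1st percentile. The summit ratio of 0.465 (0.259 to 0.808) was the lowest of the 7 genes, at the 10.5th percentile of all genes, and its interval held the median of all genes but not 1. The summit lay 677 bp after the 5′ end in the PBS library and 316 bp after it in the OVA library.

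Mapk11 and Mapk12, which encode p38β and p38γ, are neighbours on the minus strand of chromosome 15. Mapk11 (ENSMUSG00000053137.7, chr15:89142486-89149628) had a peak of 392 bp at its 5′ end in the PBS library, with 25 fragments (16.2 to 36.9), and 1 of 306 bp in the OVA library, with 15 (8.40 to 24.7). It ranked at the 36.0th and 27.4th percentile, with a summit ratio of 0.60 (0.294 to 1.18). A further peak of 309 bp, at internal starts with its summit 2590 bp into the gene, was listed only in the PBS library, with 18 fragments (10.7 to 28.4). At a like −log10 q, 68.3% of 772 start peaks of all genes had no overlapping peak in the other list. Mapk12 (ENSMUSG00000022610.10, chr15:89130584-89140703) had a start peak of 639 bp in the PBS library, with 19 fragments (11.4 to 29.7), at the 19th percentile. The OVA peak nearest to any Mapk12 start was 8553 bp away. Peaks of a like −log10 q were without an overlapping peak in 43.2% of 828 cases, and Mapk12 and Map2k3 had the same 19 fragments at their PBS summits. Mapk13 (ENSMUSG00000004864.13, chr17:28769297-28780233, plus strand), which encodes p38δ, had no start or body peak in either list.

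Among the downstream kinase genes, Mapkapk2 (ENSMUSG00000016528.10, chr1:131053700-131097826, minus strand), whose product MK2 is a main regulator of cytokine mRNA stability in the pathway, had a single peak of 1025 bp in the PBS library with 32 fragments (21.9 to 45.2). In the OVA library peaks of 610 and 246 bp, 173 bp apart, lay there, with 21 (13.0 to 32.1) and 16 fragments (9.15 to 26.0). The 246 bp peak overlapped the PBS peak by 198 bp and ran beyond its downstream end. The gene ranked at the 58.2nd and 73.6th percentile, with a summit ratio of 0.656 (0.360 to 1.17).

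Mapkapk3 (ENSMUSG00000032577.16, chr9:107254927-107289877, minus strand), whose product MK3 is close to MK2, had weak start peaks in both lists. In the PBS library a 768 bp peak (chr9:107289013-107289780) over the first and the second exon ran from 97 to 864 bp after the 5′ end, so that it began downstream of the promoter shown above, with 20 fragments (12.2 to 30.9). In the OVA library this stretch held peaks of 213 and 240 bp, 155 bp apart, each with 13 fragments (6.92 to 22.2), and both lay within the PBS peak. The rank was low in both lists, at the 15.5th and 10.0th percentile, or at the 7.18th and 9.53rd among the 9064 genes in both lists. The summit ratio of 0.650 (0.297 to 1.37) was at the 60.0th percentile of all genes, and the covered bp, 958 and 453, had a ratio of 0.473 at the 26.3rd. A 190 bp peak at an internal start, with its summit 9798 bp into the gene, was listed only in the PBS library, with 14 fragments (7.65 to 23.5), and 75% of 685 start peaks at a like −log10 q were not overlapped in the other list.

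Mapkapk5 (ENSMUSG00000029454.15, chr5:121525038-121545905, minus strand), which encodes MK5, had peaks of 783 and 731 bp, with 37 (26.1 to 51.0) and 19 fragments (11.4 to 29.7), at the 90.6th and 79.3rd percentile. Its summit ratio was 0.514 (0.279 to 0.916). Adam1a and Gm42878 also start within 1000 bp of these peaks, and the summit in the PBS library lay nearer to a start of these genes than to one of Mapkapk5.

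**Figure D3:**
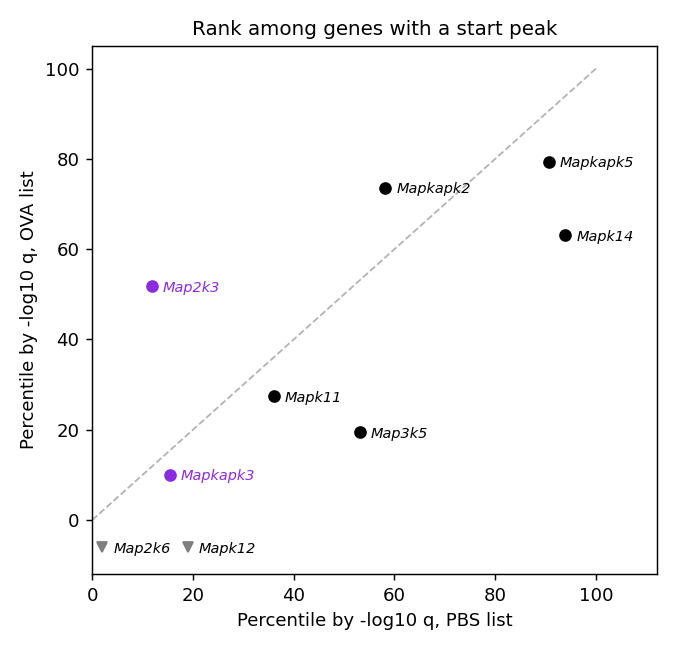
Percentile of each gene by its highest −log10 q at starts, among protein-coding genes with a start peak in the same list, 11197 for the PBS library (x axis) and 9220 for the OVA library (y axis). The dashed line marks equal percentiles and triangles below 0 are genes with no start peak in the OVA library. Map2k3 lies farthest above the line (11.8 and 51.8), while Mapkapk3 lies near it (15.5 and 10.0).

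Side by side, Map2k3 and Mapkapk3 had similar starts in the PBS library, with 19 and 20 fragments, both below the 25th percentile. The OVA library set them apart, at the 51.8th and 10.0th percentile, on summits of 17 and 13 fragments whose intervals overlapped. Ranked among the same 9064 genes in each library, Mapkapk2 was at the 50.4th percentile in PBS and the 73.3rd in OVA, Map3k5 at 44.7 and 18.7, Mapk14 at 92.6 and 62.6, and Mapkapk5 at 88.5 and 79.0. On this base Mapk11 was at 25.9 and 26.7, and the order of the PBS and OVA percentiles of Mapk11 and Mapkapk3 was opposite to that within each whole list. All 7 genes had a summit ratio below 1, with a median of 0.60 against 0.613 over all genes. The interval of each of the 7 held the median of all genes, and those of 4 held 1. All 7 also had fewer covered bp in the OVA library, as had most genes (5.44% of the 9064 had a ratio above 1), with a median ratio of 0.762 against 0.629 over all genes. Covered bp are summed over peaks, and at Map3k5 the OVA peak over the 5′ end was itself wider than the PBS one. By covered bp in place of −log10 q, the median percentile was 69.5 in the PBS list in place of 36.0, and 90.6 in the OVA list in place of 51.8. Map3k5, Mapk14, Mapkapk2 and Mapkapk5 lay between the 90.6th and the 95th percentile of the OVA list by covered bp, and Map2k3 was at 74.4. A gene with more annotated starts has a larger window to cover, and these genes have from 2 to 10 starts.

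**Figure D4:**
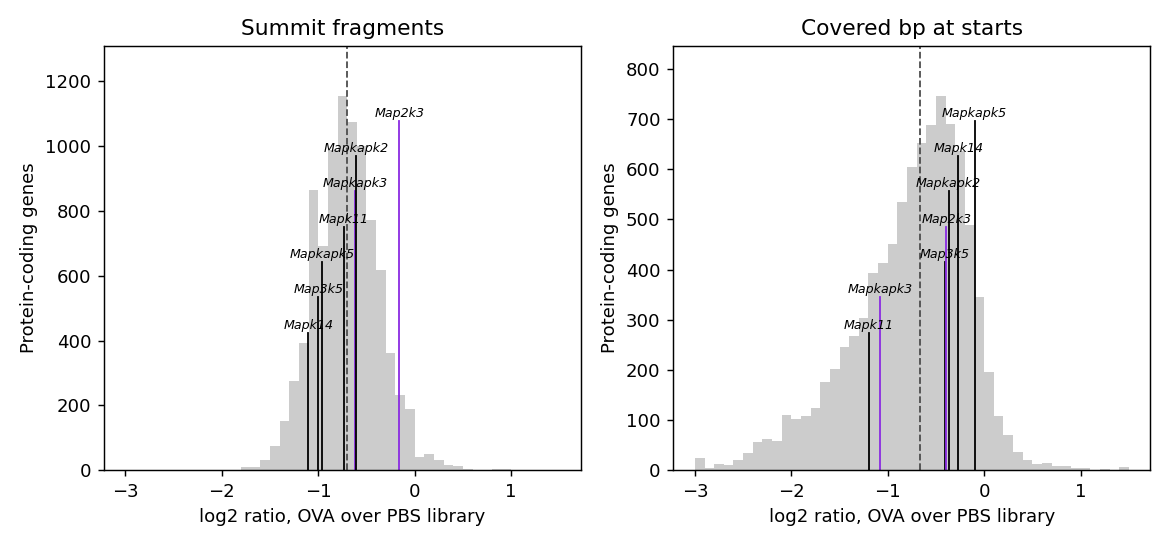
Distribution over 9064 protein-coding genes of the log2 ratio, OVA over PBS, of summit fragments (left) and of bp covered at starts (right), with the number of genes on the y axis. Values beyond the axis are drawn at its ends. Vertical lines mark the 7 p38 pathway genes in both lists, Map2k3 and Mapkapk3 in purple, and the dashed line the median of all genes. In summit fragments Map2k3 (ratio 0.895) is to the right of the other genes, and in covered bp Mapk11 (0.437) and Mapkapk3 (0.473) are to the left.

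The 2 genes that had a start peak in the PBS list only both ranked below the 25th percentile of that list. Map2k6 ranked lowest of the p38 pathway genes there. Mapk12 ranked above Map2k3 and Mapkapk3, which had a start peak in both lists, so within the pathway rank alone did not separate these genes. Of all 11197 genes with a start peak in the PBS list, 19% had none in the OVA library, and this share was 51.5% below the 25th percentile, 15.4% from the 25th to the 50th, 6.10% to the 75th and 3.07% above it. Among p38 pathway genes, 2 of 4 below the 25th percentile had none, Map2k6 and Mapk12, while Map2k3 and Mapkapk3 had one, and 0 of the 5 above it were without one. The count of genes without a start peak was thus near that of all genes of like rank.

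Genes around the pathway were counted from fixed lists. Over all protein-coding genes, 51.0% had a start peak in the PBS list and 42.0% in the OVA list. Of all genes with a PBS start peak, 19% had none in the OVA library, and 51.5% of those below the 25th percentile. All 22 genes of upstream MAP3Ks and adaptors had a start peak in the PBS list and 21 in the OVA library, the exception being Map3k20, which encodes the stress kinase ZAK (18.3rd percentile). Of 11 genes of IL-33 receptor signalling, all had a start peak in the PBS list and 10 in the OVA library, the exception being Gata3, the lineage-defining transcription factor of ILC2s (5.06th percentile). Map3k7, which encodes TAK1 and belongs to both of these gene lists, ranked at the 48.2nd percentile in the PBS library and at the 98.6th in the OVA library. Of 19 genes of p38 targets, 18 had a start peak in the PBS list and 10 in the OVA library. The other 8 made up 44.4% of the 18, against 19% over all genes. By −log10 q these were led by Elk1 and Atf7, which encode transcription factors, then Zfp36 and Zfp36l2, whose products promote the decay of AU-rich cytokine mRNAs, and the cell cycle phosphatase gene Cdc25b. Elk1 was at the 56.8th percentile in the PBS library and Atf7 at the 25.6th, while Zfp36, Zfp36l2 and Cdc25b were at 12.9, 12.2 and 9.65. Of the 7 targets below the 25th percentile, 6 had no start peak in the OVA library, against 51.5% of all genes of that rank, and of the other 11, 2 had none, against 8.20%. Mef2c, a transcription factor gene, had no start peak in either list.

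**Figure D5:**
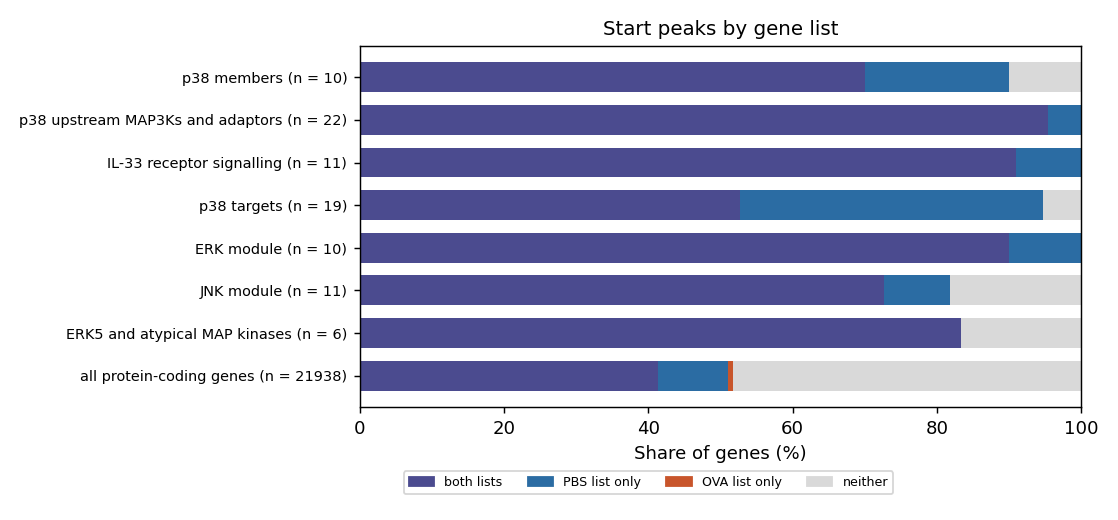
Share of genes with a start peak in both lists, in 1 list or in neither (x axis, %) for the 10 p38 pathway genes, 6 lists of related genes and all protein-coding genes. Start peaks in the PBS library only were held by 8 of 19 p38 targets and by 2 of 10 p38 pathway genes, against 9.72% of all genes. Each of the other related lists held at most 1 such gene.

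The cell type was checked with marker lists. Of 15 ILC2 markers 12 had a start peak in the PBS list and 9 in the OVA library, against 51.0% and 42.0% of all protein-coding genes. Klrg1, Icos and Il13 had none in either list, and Gata3, Il5 and Il7r had one in the PBS list only. Markers of T cells, B cells, macrophages, neutrophils and fibroblasts had a start peak in 0 of 27 cases in each list. In the PBS library only, 2 of 5 epithelial markers, Epcam and Cdh1, and 1 of 5 endothelial markers, Kdr, had one. Epcam was at the 57.5th percentile of the PBS list, above 11 of the 12 ILC2 markers with a start peak there, Cdh1 at the 19.3rd and Kdr at the 0.732nd. The sort for CD45+, lineage-negative, ST2+ cells is one that should leave out epithelial and endothelial cells, which lack CD45. The part of these cells in the start peaks of the p38 pathway genes listed in the PBS library only was not tested. In bulk libraries fewer cells with the mark and less mark per cell cannot be told apart.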

How the data were processed

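H3K4me3 was profiled by CATCH-seq in sorted ILC2s of adult lungs, with 1 library per maternal treatment, PBS (control) or OVA (asthmatic). The authors trimmed reads, aligned them to GRCm38 (mm10) with Bowtie2 and removed duplicates. A small share of each lysate was set aside for an input library, but whether peaks were called against it, and with which caller and threshold, is not given in the sources used here, and according to the reporting summary peak calling was not performed, although a list per library was deposited. The deposited lists hold a score (10 times −log10 q rounded down, in at least 99.98% of each list), a fold (a ratio of signal to background), and the peak's p and q as −log10 p and −log10 q. They give no read totals, so depth is unknown, and the smallest solved summit was 9 fragments in the PBS library and 8 in the OVA library.

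Peaks were assigned to genes by GENCODE vM21 starts within 1000 bp or overlap with the gene body, and an overlap of 1 bp made them shared. Summit fragments n and background b were solved from fold = (n + 1)/(b + 1) and the Poisson probability of more than n fragments, within 0.002 on the −log10 p scale, for 42123 of 42126 and 51607 of 51610 peaks, and the solving was tested on simulated data. Ratios of fragments have exact conditional 95% intervals and compare the summit of each list, which can lie at different places in the 2 libraries. CpG and motifs were counted in RefSeq promoters. The alternatives were thresholds, distances, starts, copied sequence, neighbour genes, overlaps and ranks.

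All 10 genes were named. Of the related lists, up to 5 genes with a start peak in 1 list only were named, in order of −log10 q, and for Map2k3 and Mapkapk3 the 3 genes nearest in both percentiles. Promoters were printed for both and 3 others. Map3k7, Rps6ka4 and Mef2c, and Il5, Il7r, Il13, Icos, Klrg1, Epcam, Cdh1 and Kdr among markers, were named after their values were seen. The genes and lists were chosen with earlier results of these data known. Versions were scipy 1.17.1, pandas 2.3.3 and numpy 2.4.6 in Python 3.11.15, with figures from matplotlib 3.10.9.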

Additional observations from a re-analysis of the deposited data

How the results depend on the processing

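Of 56 values recomputed under the alternatives, 44 stayed within 1.5 times of the reported value (for the share of shared peaks, within its interval) and 12 did not. With only the 10000 peaks of the highest −log10 p in each list, 4 of the 10 genes had a start peak in the PBS list (32.3% of all protein-coding genes), 1 in the OVA list (9.34%) and 1 in both (8.46%), with 5 and 1 peaks in all, and 25% of their 4 PBS start peaks were shared, against 24.8% of 6506 over all genes. Ranked by covered bp, the median percentile was 69.5 in place of 36.0 in the PBS list and 90.6 in place of 51.8 in the OVA list. Ranked among every protein-coding gene it was 63.0 and 67.8, and among the 9064 genes with a start peak in both lists, an alternative chosen after seeing the data, 44.7 and 51.1. The difference in covered bp, OVA minus PBS, was -171 at Map2k3 and -505 at Mapkapk3. Within 500 bp of a start these were -56 and -315. At a minimum −log10 q of 5 Mapkapk3 differed by -958 bp, where both OVA peaks were lost by construction. Limits are 1 library per group, unknown depth and summits of few fragments. No paired analysis was possible because each group held 1 library.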

Other observations

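Other MAP kinase modules were counted in the same way, against 51.0% of all protein-coding genes in the PBS list and 42.0% in the OVA list. Of all genes with a PBS start peak, 19% had none in the OVA library, and 51.5% of those below the 25th percentile. Of 10 ERK module genes, all had a start peak in the PBS list and 9 in the OVA library, the exception being Araf, a RAF kinase gene (10.4th percentile). Of 11 JNK module genes 9 and 8 had one, with Jun, the AP-1 subunit gene, in the PBS library only (7.59th percentile). Of 6 genes of ERK5 and atypical MAP kinases, 5 had one in both lists. The median summit ratio was 0.615 in the ERK, 0.667 in the JNK and 0.591 in the ERK5 and atypical lists, against 0.613 over all genes.

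Among 60 genes of the related lists with a start peak in both libraries, those nearest to Map2k3 in their pair of percentiles were Rps6ka3 (24.4 percentile points away), Mapk6 (24.6) and Gadd45b (24.6), so none was close to it. A larger rise in percentile from the PBS to the OVA list was seen at Rps6ka4 (30.3 to 90.1) and Map3k7 (48.2 to 98.6). Those nearest to Mapkapk3 were Irak1 (7.76), Map3k6 (8.41) and Map3k11 (11.6). Both are likenesses over 2 libraries.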
